A study of Mus musculus with 20 samples.

Results

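Paired myeloid receptors are related immunoglobulin-type surface receptors of opposite sign, and 10 of the 24421 genes in the count table were taken for this group by their symbols: Pirb, Siglece, Siglec1, Cd300a, Cd300lf, Cd300lb, Sirpa, Lair1, Trem1 and the adaptor gene Tyrobp. The rule names immunoglobulin-type receptors with an inhibitory motif or an activating partner, the Fcγ receptors being left out, and no threshold on these data enters it. Its list also holds Tyrobp, an adaptor rather than such a receptor, and Siglec1, which has no inhibitory motif of its own. Bulk RNA-seq was performed on murine bone marrow-derived dendritic cells (BMDCs), grown from wild-type C57BL/6 marrow with GM-CSF at 40 ng/mL over 8 days. Cells of 5 mice (A to E) were each split over 4 groups of 5 libraries: DMSO with soluble ovalbumin (DMSO Ova), DMSO with ovalbumin immune complexes (DMSO IC), and the same pair of stimuli with I-BET151 at 3.3 μM (iBET Ova and iBET IC), all for 4 hours. I-BET151 is a small molecule that blocks the binding of BET proteins to acetylated histones. The methods have iBET or DMSO added ahead of the stimulus, the labels describe them as given together, and the labels name 5% DMSO in the DMSO groups only, so a match of the solvent cannot be read from them. The comparisons ask how iBET, IC and their combination change these genes.

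Inhibitory members carry an immunoreceptor tyrosine-based inhibitory motif (ITIM) in their own tail, which recruits the phosphatases SHP-1 and SHP-2 when phosphorylated. Activating members have short tails and instead pair with an adaptor such as DAP12, the product of Tyrobp, whose activation motif (ITAM) recruits the kinase Syk. Both kinds often arise from neighbouring genes with similar extracellular domains, and they set how strongly a macrophage or dendritic cell answers to other signals, Fc receptors included.

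Libraries held 16447491 to 29245150 counts (median 21764663), so that 1 count was worth 0.035 to 0.0593 CPM (the count relative to the TMM-scaled library total). All 10 genes passed the filter on low counts and were among 12465 genes tested by edgeR (quasi-likelihood F test), the p values being adjusted over all of them by the Benjamini-Hochberg method. Libraries of the same mouse deviated together, and mice A and B stood apart from mice C, D and E on the second principal component. Values with the mouse as a replicate block and within these sets of mice are therefore given where they change a call of a member. Of the dendritic cell markers, Itgax had 30128 to 73641 counts and Cd74 31359 to 112572, whereas Cd209a had 1 to 14 and Flt3 3 to 134. The summed CPM of 6 macrophage markers was 1580 to 2040 in DMSO Ova and 1540 to 2070 in DMSO IC, against 1090 to 1370 in iBET Ova and 1120 to 1550 in iBET IC. For the 3 monocyte markers (Ly6c2, Ccr2 and F13a1) it was 351 to 749, 190 to 399, 39.8 to 56.4 and 44.5 to 59.2 in the same order. Ccr2 carried that difference, with 306 to 721, 145 to 364, 13.3 to 16.2 and 11.5 to 18.5 CPM, whereas Ly6c2 overlapped between all groups (17.6 to 42.7 CPM over the 20 libraries) and F13a1 reached at most 8.18. Of the macrophage markers, Csf1r (830 to 1220 CPM in DMSO Ova, 485 to 694 in iBET Ova) and Fcgr1 (50.6 to 74.2 and 12.9 to 16.9) did not overlap between these groups, but Adgre1, Mertk, C1qa and Mrc1 did. Neutrophil markers (8 of 9 in the table) summed to 12.6 to 52.7 CPM over all groups, eosinophil markers (3 of 3) to 15.8 to 89.5, and those of mast cells and basophils (5 of 5), B cells (4 of 4) and T and NK cells (7 of 7) to at most 3.05, 0.726 and 1.55. In bulk RNA, fewer cells of a type and less RNA per cell cannot be told apart.

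Each of the members is a protein-coding gene. In GRCm38 (GENCODE M21), Cd300a lies on chromosome 11 from 114890041 to 114904654, Cd300lb from 114922781 to 114934386 and Cd300lf from 115116214 to 115133992, the latter pair on the minus strand. Pirb (chromosome 7, 3711409 to 3720391) and Lair1 (4003402 to 4063204) both lie in the leukocyte receptor complex, also on the minus strand. Elsewhere on chromosome 7 are Tyrobp (30413760 to 30417585) and Siglece (43651070 to 43660161), while Sirpa (129592835 to 129632228) and Siglec1 (131069220 to 131086765) lie on chromosome 2, and Trem1 (48232768 to 48246924) on chromosome 17.

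RefSeq promoter windows of GRCm38.p6 were held for 7 of the 10 members, and the 250 bases upstream of the annotated start are shown for the Cd300 genes, which share a cluster and fell with iBET to unequal degrees, and for Pirb, the most abundant receptor that fell. The windows are chr11:114889791-114890040 on the plus strand for Cd300a, and chr11:114934372-114934621, chr11:115133993-115134242 and chr7:3720383-3720632 on the minus strand for Cd300lb, Cd300lf and Pirb. Capitals mark AGGAAG or its reverse complement CTTCCT, the core that ETS factors such as the myeloid factor PU.1 recognise.
Cd300a: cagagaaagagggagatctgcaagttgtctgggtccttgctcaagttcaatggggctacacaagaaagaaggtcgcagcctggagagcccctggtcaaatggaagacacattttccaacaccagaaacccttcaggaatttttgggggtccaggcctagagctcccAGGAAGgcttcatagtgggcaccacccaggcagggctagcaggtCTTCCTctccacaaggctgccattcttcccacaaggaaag
Cd300lb: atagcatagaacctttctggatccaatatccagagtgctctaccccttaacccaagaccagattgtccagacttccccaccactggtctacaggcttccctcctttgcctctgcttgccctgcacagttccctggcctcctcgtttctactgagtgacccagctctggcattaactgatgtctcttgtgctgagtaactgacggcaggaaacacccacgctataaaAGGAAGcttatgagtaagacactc
Cd300lf: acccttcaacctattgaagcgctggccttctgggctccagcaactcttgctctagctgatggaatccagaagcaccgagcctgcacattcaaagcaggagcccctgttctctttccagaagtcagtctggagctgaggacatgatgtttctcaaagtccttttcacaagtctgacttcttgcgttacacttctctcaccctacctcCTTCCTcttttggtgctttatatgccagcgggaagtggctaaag
Pirb: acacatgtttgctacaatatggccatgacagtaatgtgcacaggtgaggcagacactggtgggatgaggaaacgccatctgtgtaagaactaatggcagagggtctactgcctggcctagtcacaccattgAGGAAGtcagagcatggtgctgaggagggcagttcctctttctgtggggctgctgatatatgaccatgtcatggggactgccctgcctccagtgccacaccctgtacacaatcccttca
These letters occurred on either strand in 7 of the 7 members' windows (Siglece, Lair1 and Trem1 besides those shown) and in 29.5% of all 32851 windows of this length. Sirpa, Siglec1 and Tyrobp had no window. The 7 with a window are the members called lower with iBET under both stimuli, so they could not be compared with members that were not. The C/EBP-type letters TTNCNNAA were in 6 of 7, all but Cd300lb, against 36.8% of all windows, and in Pirb this match overlaps the marked one. TATAAA was found in 2 of 7 (Cd300lf and Cd300lb, with the match beginning 28 and 30 bases before the start) against 12.4%, and the AP-1 letters TGANTCA in 0 of 7 against 6.75%. A match of letters is a description of the window and was not tested as a binding site.

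Sirpa and Tyrobp were the most abundant of these transcripts, and the other members spanned a wide range below them. Per kilobase of exon in DMSO Ova, the level was 614 ± 159 CPM per kb for Tyrobp, 199 ± 30.5 for Sirpa and 74.6 ± 6.62 for Pirb (SD, n = 5 mice each), and these ranges did not overlap. The Cd300 genes followed at 23.5 ± 4.38 CPM per kb (Cd300lb), 18.1 ± 2.03 (Cd300lf) and 14.3 ± 3.31 (Cd300a), each overlapping the next in range. Trem1 was at 7.79 ± 2.17, its highest library level with the lowest of Cd300a at 10.8, and Lair1 at 3.95 ± 0.542 CPM per kb, below every Trem1 value. Siglece (1.3 ± 0.404) and Siglec1 (0.758 ± 0.139 CPM per kb) were lowest and overlapped. In iBET Ova the first 3 places were unchanged, with 22.9 ± 2.43 CPM per kb for Pirb, but Cd300lb (3.29 ± 0.152) had dropped below Cd300lf (5.86 ± 0.963). Cd300lb was also below the means of Cd300a (4.01 ± 0.637) and Trem1 (3.53 ± 0.953), but its range overlapped both of theirs. Siglece (0.262 ± 0.0737) lay below every library's value for Siglec1 (0.532 ± 0.141 CPM per kb).

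**Figure D1:**
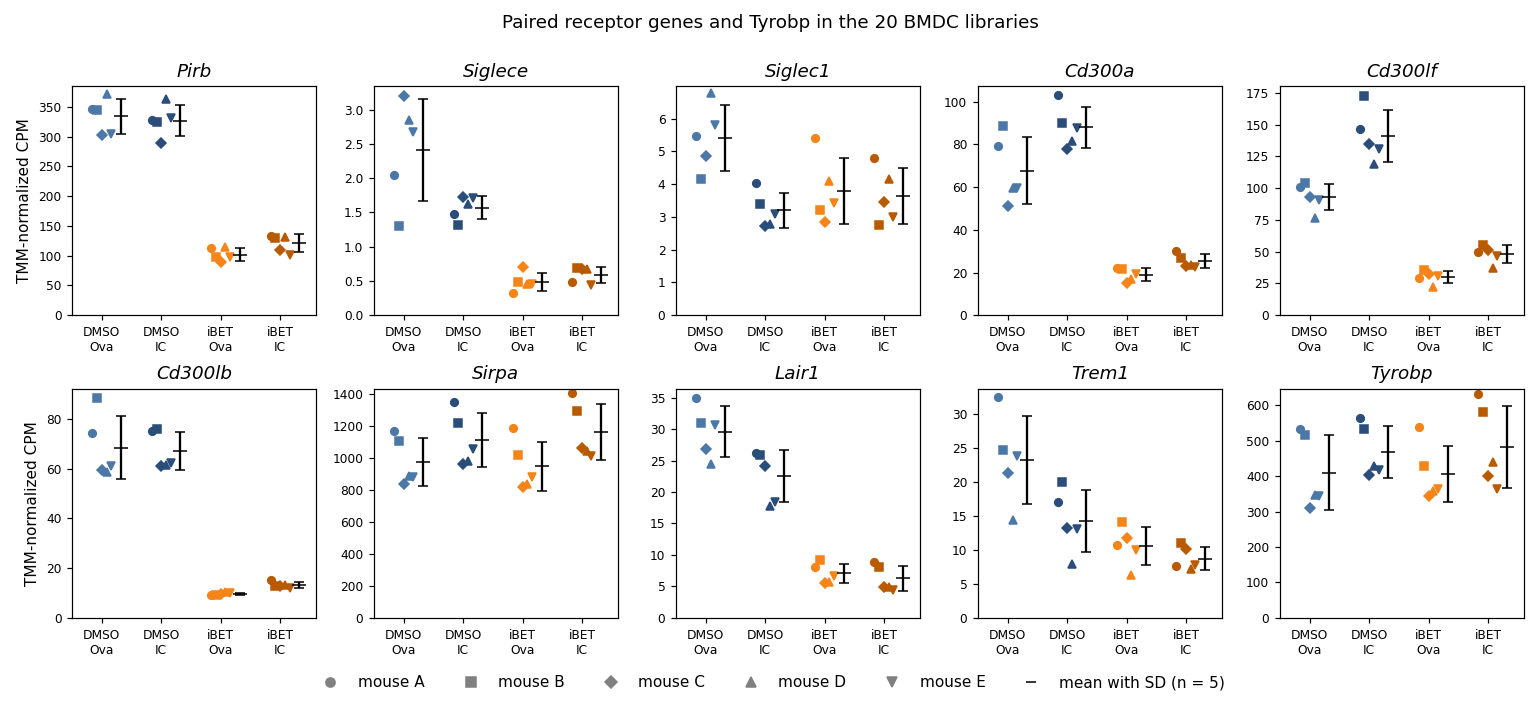
Normalized CPM (vertical axis, linear, from 0) of each gene in the 20 libraries, by group on the horizontal axis. Symbols are mice A to E and the black mark beside each group is the mean with its SD (n = 5). Pirb, Siglece, Lair1 and the Cd300 genes drop in both iBET groups. Trem1 drops less, its IC groups overlapping, and Sirpa and Tyrobp do not drop.

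iBET was accompanied by lower RNA of most receptors of both signs, while the shared adaptor Tyrobp and the abundant inhibitory receptor Sirpa showed no detectable change. With Ova, 8 of 10 members were lower (28.9% of all genes tested were) and 0 were higher (27.7%). With IC, 7 were lower (29.0% of all genes) and 0 higher (27.1%). The median log2 fold change over the members was -1.67 for Ova and -1.42 for IC, beside medians of -0.0029 and -0.0054 over all genes. The iBET and DMSO libraries did not overlap for 7 members with Ova and 6 with IC. The share of all genes without such overlap was not counted, so these numbers only describe the members. The same counts of 8 and 7 were obtained with the mouse as a block, when 35.2% of all genes were lower and 33.5% higher with Ova, and 35.4% and 32.6% with IC. Ccr2, Csf1r and Fcgr1 among the monocyte and macrophage markers were lower in iBET Ova than in DMSO Ova as well, as given above, while others such as Ly6c2 and Adgre1 overlapped, and the part of such cells in these differences was not tested.

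Among the inhibitory receptors, Pirb, which binds MHC class I, had 346, 344, 303, 371 and 304 CPM in mice A to E in DMSO Ova, 328, 324, 290, 363 and 332 in DMSO IC, 113, 97.9, 88.7, 114 and 98.4 in iBET Ova, and 133, 130, 109, 132 and 101 in iBET IC. All 10 iBET libraries were far below all 10 DMSO libraries. Under Ova the level was 3.26-fold lower with iBET (log2 fold change -1.70 ± 0.094 SE, edgeR adjusted p = 1.48e-11), and under IC it was 2.7-fold lower (-1.43 ± 0.0932 SE, edgeR adjusted p = 1.47e-10). Part of the Pirb transcript is shared with the activating Pira genes: of its 4840 distinct 100-base stretches in GENCODE, 1002 (20.7%) also occur in another gene, and how the authors counted reads that fit several genes is not given in the sources used here. The Pira4 and Pira7 rows differed by at most 6 counts in any of the 20 libraries, at 957 to 5535 counts, so the 6 tested Pira rows are not independent and the split of reads between Pirb and Pira is uncertain. All 6 of these rows fell under both stimuli, for example Pira2, with log2 fold changes of -1.26 (Ova, edgeR adjusted p = 3.5e-09) and -1.14 (IC, edgeR adjusted p = 1.24e-08).

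Cd300a, an inhibitory receptor for phosphatidylserine and phosphatidylethanolamine, had 79.3, 88.7, 51.2, 59.4 and 59.5 CPM in mice A to E in DMSO Ova and 22.1, 21.6, 15.1, 16.8 and 19.4 in iBET Ova, with 103, 89.9, 78, 81.8 and 87.6 in DMSO IC and 30.3, 26.7, 23, 23.7 and 22.5 in iBET IC. It was lower with iBET under either stimulus, with log2 fold changes of -1.83 ± 0.144 SE (Ova) and -1.80 ± 0.142 SE (IC), at edgeR adjusted p values of 2.1e-09 and 2.14e-09. Cd300lf, a second inhibitory receptor of the cluster, had 101, 104, 93.3, 76.9 and 91.1 CPM in DMSO Ova and 29.6, 35.8, 32.6, 22.4 and 30.6 in iBET Ova, with 147, 173, 135, 119 and 131 in DMSO IC and 49.8, 55.2, 51.7, 36.8 and 46.5 in iBET IC. The log2 fold changes were -1.63 (Ova) and -1.55 (IC), at edgeR adjusted p values of 2.51e-09 and 3.82e-09. For both genes each iBET library lay below each DMSO library of the same stimulus. Stretches shared with another gene were few: 41 of 4830 for Cd300a, with Cd300c2, and 35 of 5435 for Cd300lf, with Cd300ld. Cd300lf also overlaps Rab37 on the opposite strand, which had at most 48 counts in a library.

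Lair1, the inhibitory receptor for collagens, had 34.9, 30.9, 26.8, 24.4 and 30.7 CPM in DMSO Ova, against 8.12, 9.22, 5.6, 5.76 and 6.57 in iBET Ova. In the IC groups the values were 26.2, 25.9, 24.2, 17.7 and 18.4 with DMSO and 8.81, 8.11, 4.97, 4.96 and 4.5 with iBET, and again the groups did not overlap. It was 4.18-fold lower under Ova (-2.07 on the log2 scale, edgeR adjusted p = 1.98e-08) and 3.55-fold lower under IC (-1.83, edgeR adjusted p = 1.07e-07). Siglece, an ITIM receptor for sialic acids, was low throughout, with 22 to 81 counts in DMSO Ova and 8 to 12 in iBET Ova. Its CPM was 2.04, 1.3, 3.2, 2.84 and 2.67 in DMSO Ova, 1.48, 1.32, 1.73, 1.62 and 1.71 in DMSO IC, 0.323, 0.488, 0.7, 0.45 and 0.46 in iBET Ova, and 0.481, 0.682, 0.673, 0.668 and 0.445 in iBET IC. Despite these small counts no iBET library reached a DMSO library, and the log2 fold changes were -2.33 for Ova (95% interval -2.83 to -1.83, edgeR adjusted p = 7.99e-08) and -1.41 for IC (-1.89 to -0.92, edgeR adjusted p = 3.95e-05).

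Sirpa, the receptor for the widely expressed surface protein CD47, behaved differently. It had 1168, 1105, 839, 886 and 878 CPM in DMSO Ova, 1185, 1017, 815, 835 and 880 in iBET Ova, 1350, 1217, 960, 981 and 1054 in DMSO IC, and 1403, 1294, 1064, 1042 and 1015 in iBET IC. Mice A and B were above the other mice in every group, and the groups overlapped. iBET gave log2 fold changes of -0.04 under Ova (95% interval -0.32 to 0.23, edgeR adjusted p = 0.798) and 0.07 under IC (-0.21 to 0.34, edgeR adjusted p = 0.695), so a change of the size seen for Pirb lies outside these intervals.

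Siglec1, a sialic acid-binding adhesion receptor of macrophages that has no ITIM of its own, had 5.47, 4.15, 4.85, 6.79 and 5.8 CPM in DMSO Ova, 5.41, 3.2, 2.86, 4.1 and 3.43 in iBET Ova, 4.03, 3.4, 2.71, 2.79 and 3.09 in DMSO IC, and 4.81, 2.76, 3.47, 4.15 and 3 in iBET IC. DMSO Ova was the high group, but it overlapped iBET Ova, mouse A of which was at 5.41. Under Ova iBET gave -0.51 on the log2 scale (edgeR adjusted p = 0.025), and under IC 0.19 (95% interval -0.21 to 0.59, edgeR adjusted p = 0.409). The fall with Ova no longer passed without mouse C, D or E (edgeR adjusted p = 0.0863, 0.105 and 0.109), and it was -0.16 in mice A and B alone (edgeR adjusted p = 0.708) and -0.70 in mice C, D and E (edgeR adjusted p = 0.00347). With the mouse as a block it was -0.52 (edgeR adjusted p = 0.00185).

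Of the activating receptors, Cd300lb showed the largest change of the members under either stimulus. It had 74.4, 88.3, 59.6, 58.8 and 61.2 CPM in mice A to E in DMSO Ova and 9.09, 9.33, 9.51, 10.2 and 9.83 in iBET Ova, and 75.1, 75.9, 61, 61.5 and 62.2 in DMSO IC and 15.1, 12.9, 13, 13.1 and 12 in iBET IC. The spread between mice was narrow in both iBET groups. The level was 7.13-fold lower with Ova (log2 fold change -2.83, 95% interval -3.07 to -2.60, edgeR adjusted p = 1.29e-13) and 5.07-fold lower with IC (log2 fold change -2.34, 95% interval -2.57 to -2.12, edgeR adjusted p = 1.33e-12). Because Cd300lb fell further than its inhibitory neighbours, the ratio of its counts to those of Cd300a went from 1.02 ± 0.0854 in DMSO Ova to 0.518 ± 0.0994 in iBET Ova, and from 0.763 ± 0.0529 in DMSO IC to 0.526 ± 0.0346 in iBET IC (SD, n = 5 each). The lowest DMSO ratio, 0.709, was above the highest with iBET, 0.632. Against Cd300lf, the count ratio was 0.733 ± 0.0825, 0.478 ± 0.0355, 0.327 ± 0.0753 and 0.28 ± 0.049, with the groups in the order used above. These ratios are descriptions, and no test of the difference between genes was made. Cd300ld, a further gene of the cluster named for its position after its values were seen, fell by about 1 on the log2 scale (-1.06 with Ova and -1.02 with IC, edgeR adjusted p = 2.41e-05 and 3.01e-05).

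Trem1, an amplifier of inflammatory responses that signals through DAP12, had 32.5, 24.7, 21.3, 14.4 and 23.8 CPM in DMSO Ova and 10.7, 14.2, 11.7, 6.3 and 10 in iBET Ova. With IC it had 17.1, 20, 13.3, 7.99 and 13.1 CPM with DMSO and 7.66, 11, 10.1, 7.25 and 7.73 with iBET. Mouse D was lowest in each group, the Ova groups were just separate and the IC groups overlapped. Trem1 was 2.21-fold lower under Ova (-1.14 on the log2 scale, edgeR adjusted p = 0.000391) and 1.63-fold lower under IC (-0.71, edgeR adjusted p = 0.0172). The latter did not pass without mouse A, B or E (edgeR adjusted p = 0.0781, 0.0521 and 0.0638), and was -0.98 in mice A and B (edgeR adjusted p = 0.00593) and -0.43 in mice C, D and E (edgeR adjusted p = 0.167). With the mouse as a block the fall under IC was -0.68 (edgeR adjusted p = 0.000166).

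Tyrobp, which Cd300lb and Trem1 need to signal, had 533, 515, 310, 347 and 343 CPM in DMSO Ova, 538, 428, 343, 359 and 363 in iBET Ova, 563, 533, 403, 429 and 417 in DMSO IC, and 631, 580, 400, 440 and 364 in iBET IC. The iBET and DMSO groups overlapped throughout, and mice A and B were the highest in all 4. iBET gave log2 fold changes of -0.01 under Ova (95% interval -0.39 to 0.37, edgeR adjusted p = 0.96) and 0.04 under IC (-0.33 to 0.42, edgeR adjusted p = 0.855), values whose sign turned without mouse B (0.09, Ova) and when scaled by library size alone (-0.009, IC). The count ratio of Trem1 to Tyrobp was 0.0577 ± 0.0125 in DMSO Ova and 0.0265 ± 0.00753 in iBET Ova, whereas that of Sirpa to Tyrobp was 2.43 ± 0.25 and 2.34 ± 0.0832 (SD, n = 5 each).

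**Figure D2:**
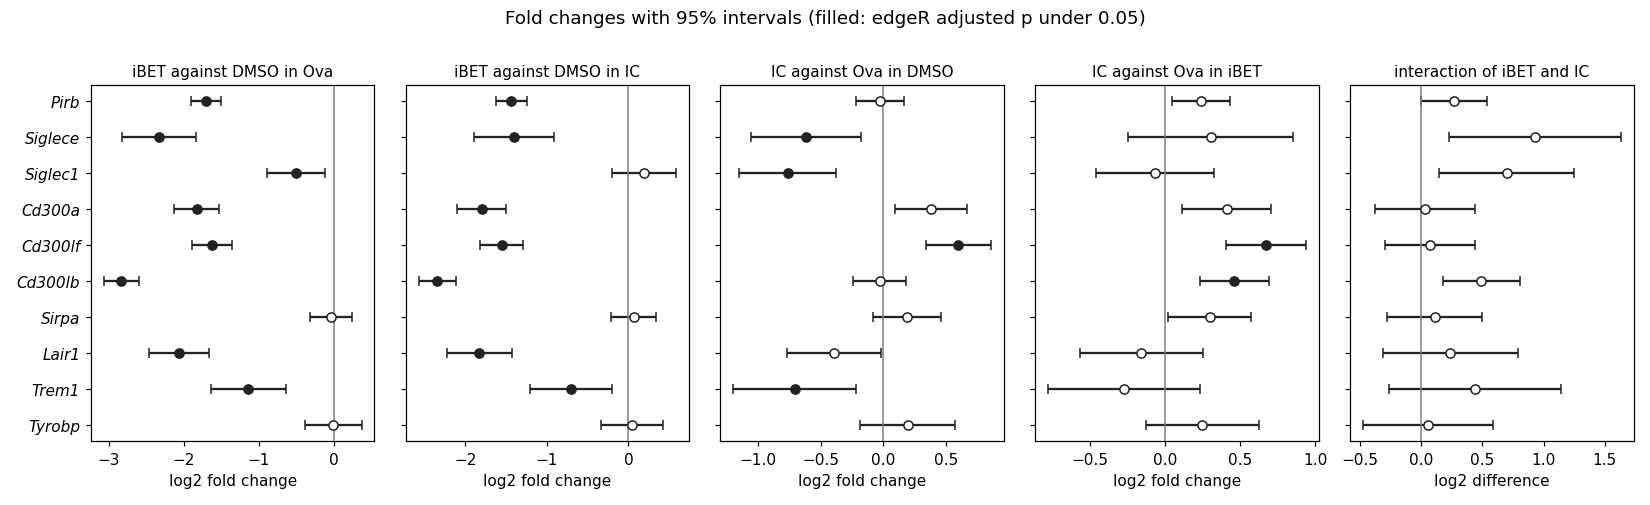
Log2 fold change (horizontal axis, scaled separately in each panel) of each gene in 4 comparisons, and the interaction as a log2 difference, with 95% intervals. Filled points have an edgeR adjusted p under 0.05: 8 and 7 in the iBET panels, 4 and 2 in the IC panels and 0 for the interaction.

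Cd300lf was higher with immune complexes under both treatments, and how many other members passed depended on whether libraries were compared within mice. IC against Ova with DMSO gave 1 member higher (9.59% of all genes tested were) and 3 lower (10.7%), with a median log2 fold change of -0.03 over the members and -0.0237 over all genes. With iBET, 2 members were higher (5.19%) and 0 lower (6.63%), with a median of 0.27 and of -0.0141 over all genes. With the mouse as a block the counts rose to 4 higher and 4 lower with DMSO (18.3% and 19.8% of all genes), and to 6 higher and 0 lower with iBET (14.2% and 14.7%). Scaling by library size alone moved the median over all genes to -0.1314 with DMSO and -0.1208 with iBET and changed the split over all genes from 1196 higher and 1335 lower to 582 and 2593 with DMSO, and from 647 and 827 to 313 and 2030 with iBET, while the members split as 1 higher and 4 lower, and as 2 and 0. The comparisons with DMSO and with iBET share no library, but each shares its libraries with the iBET comparisons above.

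Cd300lf rose with IC in 5 of 5 mice under either treatment, and the groups did not overlap. Its log2 fold change was 0.60 with DMSO (standard error 0.125, edgeR adjusted p = 0.00224) and 0.67 with iBET (standard error 0.128, edgeR adjusted p = 0.00186), and it passed in 16 of 16 alternative fits of either comparison, but is under the log2 change of 1 required in a further alternative. Cd300a, the other inhibitory gene of the cluster, was higher in 5 of 5 mice as well, by 0.38 with DMSO and 0.41 with iBET on the log2 scale, which missed the threshold (edgeR adjusted p = 0.0547 and 0.0653) and passed with the mouse as a block (edgeR adjusted p = 0.000187 and 0.000522). Without mouse B, whose difference with DMSO was 0.018, Cd300a passed with DMSO (log2 fold change 0.49, edgeR adjusted p = 0.029). In mice C, D and E alone Cd300a passed with DMSO and with iBET (0.56 and 0.42, edgeR adjusted p = 0.000667 and 0.0146). In mice A and B alone it passed with neither (0.19 and 0.40, edgeR adjusted p = 0.37 and 0.095). For the activating Cd300lb, IC made no detectable difference with DMSO (log2 fold change -0.03, 95% interval -0.24 to 0.19, edgeR adjusted p = 0.892), but the gene was higher with iBET in 5 of 5 mice (0.46, edgeR adjusted p = 0.00965). That rise passed with the mouse as a block (edgeR adjusted p = 0.00137). It also passed in mice A and B alone (0.62, edgeR adjusted p = 0.0382) and in mice C, D and E alone (0.36, edgeR adjusted p = 0.00572). In fits without the block it did not pass without mouse A (edgeR adjusted p = 0.067) or mouse C (edgeR adjusted p = 0.05).

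Genes lower with IC under DMSO were Siglec1 (log2 fold change -0.76, lower in 5 of 5 mice, edgeR adjusted p = 0.00712), Trem1 (-0.71, 5 of 5 mice, edgeR adjusted p = 0.038) and Siglece (-0.62, 4 of 5 mice, edgeR adjusted p = 0.0424). Only for Siglec1 among them did the groups not overlap. All 3 passed with the mouse as a block (edgeR adjusted p = 0.000239, 0.000148 and 0.0058). Without the block, leaving out 1 mouse could lose the call: Siglec1 did not pass without mouse D (edgeR adjusted p = 0.0793), Trem1 without A, C or E (edgeR adjusted p = 0.105, 0.139 and 0.138), and Siglece without A, C, D or E (edgeR adjusted p = 0.0586, 0.171, 0.18 and 0.124). In mice A and B alone these log2 fold changes were -0.40, -0.64 and -0.30 (edgeR adjusted p = 0.55, 0.124 and 0.692), against -1.01, -0.77 and -0.76 in mice C, D and E (edgeR adjusted p = 0.00124, 0.0318 and 0.0097). Of the monocyte markers Ccr2 was lower in most DMSO IC libraries too (145 to 364 against 306 to 721 CPM) and Ly6c2 was not (28.8 to 38.8 against 17.6 to 39.7), and the part of such cells was not tested. With iBET, IC gave log2 fold changes of -0.07 for Siglec1, -0.27 for Trem1 and 0.31 for Siglece, none past the threshold (edgeR adjusted p = 0.869, 0.542 and 0.514).

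For Sirpa, Tyrobp, Lair1 and Pirb the groups overlapped. With TMM scaling and group as sole factor over all 20 libraries, none of their differences between IC and Ova passed. Sirpa was higher with IC in 5 of 5 mice, by 0.19 with DMSO and 0.30 with iBET on the log2 scale (edgeR adjusted p = 0.34 and 0.151), which passed with the mouse as a block (edgeR adjusted p = 0.00115 and 2.55e-05). Tyrobp was higher in 5 of 5 mice too, by 0.20 and 0.25 (edgeR adjusted p = 0.494 and 0.419, with the block 0.00814 and 0.00645). Lair1 was lower with DMSO in 5 of 5 mice (-0.39, edgeR adjusted p = 0.129, with the block 0.00251) and gave -0.16 with iBET (edgeR adjusted p = 0.682). Pirb was at -0.03 with DMSO (edgeR adjusted p = 0.873) and, higher in 5 of 5 mice, at 0.24 with iBET (edgeR adjusted p = 0.0943, with the block 0.00275). In mice C, D and E alone, Sirpa passed with DMSO and with iBET (0.22 and 0.30, edgeR adjusted p = 0.0184 and 0.00796). Tyrobp and Lair1 passed there with DMSO only (0.34 and -0.42, edgeR adjusted p = 0.00505 and 0.0212). In mice A and B alone none of these genes passed.

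**Figure D3:**
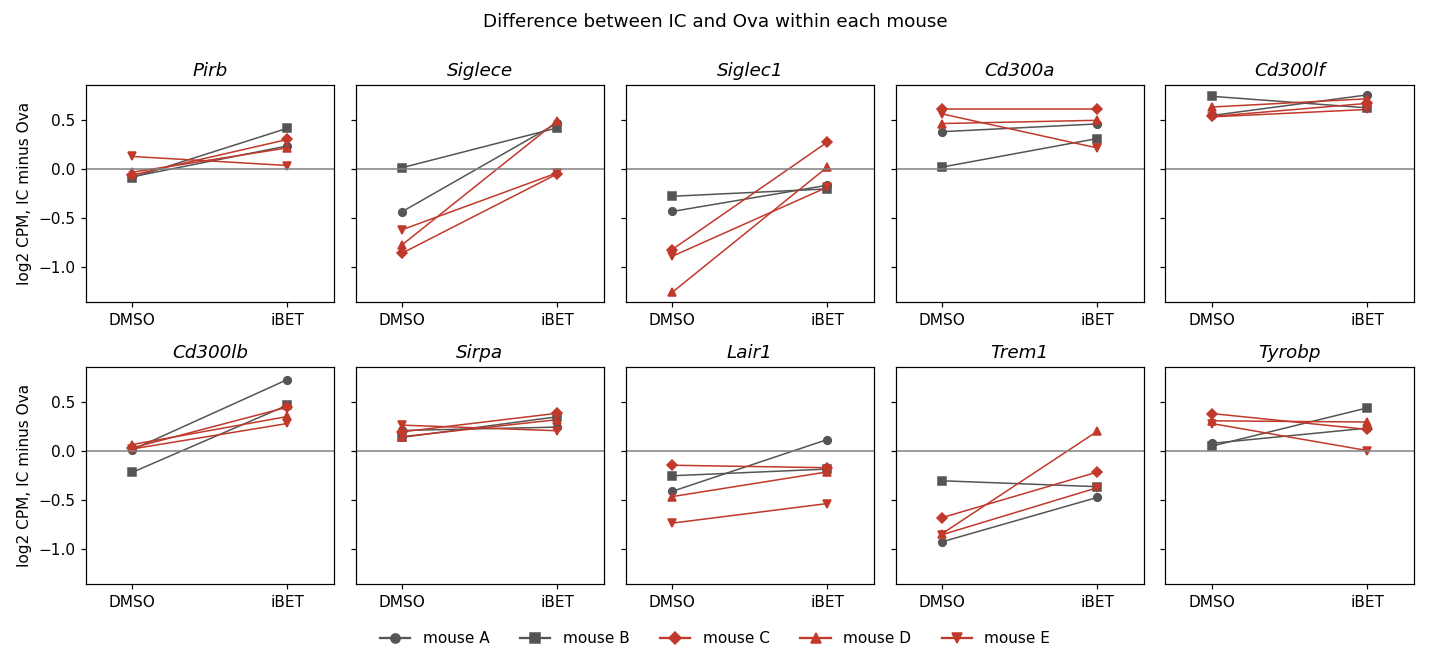
Difference between IC and Ova in log2 CPM (vertical axis) within each mouse, with DMSO on the left and iBET on the right of each panel. Lines join the values of 1 mouse, with mice A and B in grey and C, D and E in red. The lines of Cd300lb, Siglec1 and Siglece rise in 5 of 5 mice, and those of Cd300lf lie above 0 throughout.

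Whether the IC response differed between iBET and DMSO was tested by the interaction, which is positive where IC raised a gene more, or lowered it less, with iBET. By edgeR 0 of 10 members passed, where 0.0241% of all genes were positive and 0.0160% negative, and 0 passed with the mouse as a block (0.401% and 0.417%). Before adjustment 3 members were under 0.05, as were 4.36% of all genes: Cd300lb with an interaction of 0.49 on the log2 scale (95% interval 0.18 to 0.80), Siglec1 with 0.70 (0.14 to 1.25) and Siglece with 0.93 (0.22 to 1.63), each positive in 5 of 5 mice. Their edgeR adjusted p was 0.653, 0.982 and 0.959, and 0.076, 0.109 and 0.167 with the block. DESeq2 passed 0 members without the block (0.0716% of all genes were positive and 0.119% negative) and 2 with it (0.767% and 0.800%), Cd300lb (0.48, DESeq2 adjusted p = 0.0327) and Pirb (0.27, DESeq2 adjusted p = 0.0273). All 10 estimates were above 0 (median 0.25, against 0.002 over all genes), the smallest being Cd300a at 0.03 and Tyrobp at 0.06, with edgeR adjusted p = 1 for each. These estimates come from the same libraries, and the share of all genes above 0 was not counted. In mice C, D and E alone Cd300a was at -0.135 and Tyrobp at -0.166.

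Most further paired receptors of the myeloid lineage were lower with iBET as well. Of 57 listed, 43 were in the table and 38 were tested, 6 of them Pira rows that share reads. With iBET and Ova 31 of 38 were lower and 0 higher (28.9% and 27.7% of all genes, median log2 fold change -1.27), and with IC 27 were lower and 0 higher (29.0% and 27.1% of all genes, median -1.06). Lilrb4a, an inhibitory leukocyte immunoglobulin-like receptor, had 906 ± 163 CPM in DMSO Ova and 726 ± 120 in iBET Ova (SD, n = 5 each; log2 fold change -0.32, edgeR adjusted p = 0.0366). Under IC it gave -0.28 (edgeR adjusted p = 0.0697, with the block 0.00057, without mouse A 0.0473). The Lilrb4a fall with Ova passed with the block (edgeR adjusted p = 0.000161). In fits without the block it did not pass without mouse A, C, D or E (edgeR adjusted p = 0.0625, 0.0553, 0.0875 and 0.111). Lilr4b, its close relative, gave -0.45 and -0.37 (edgeR adjusted p = 0.0011 and 0.0049). Cd84, a homophilic receptor of the SLAM family, gave -1.53 and -1.45 (edgeR adjusted p = 2.75e-06 and 4.96e-06). Cd200r1, the inhibitory receptor for CD200, fell most with Ova among listed receptors with a mean of at least 100 counts, from 314 ± 62.9 to 53.7 ± 10.8 CPM (SD, n = 5 each), a log2 fold change of -2.55 (edgeR adjusted p = 5.61e-11), and Slamf7 fell most with IC (-2.63, edgeR adjusted p = 7.41e-07).

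Signalling partners of these receptors did not move as one group. Of 28 adaptors, kinases and phosphatases, 4 were higher and 14 lower with iBET under either stimulus (27.7% and 28.9% of all genes with Ova, 27.1% and 29.0% with IC), with medians of -0.58 (Ova) and -0.40 (IC) for the log2 fold change. Syk, the kinase recruited by ITAMs, went from 410 ± 23.4 to 210 ± 6.42 CPM with Ova and from 521 ± 21.1 to 276 ± 9.54 with IC (SD, n = 5 each), log2 fold changes of -0.97 and -0.92 (edgeR adjusted p = 7.77e-12 and 1.64e-11). Fgr, a Src-family kinase, fell most (-3.15 and -2.95, edgeR adjusted p = 1.23e-15 and 3.84e-15). On the ITIM side the phosphatases parted: Ptpn6, which encodes SHP-1 and was named for its role after its values were seen, had log2 fold changes of -1.25 and -1.31 (edgeR adjusted p = 2.95e-10 and 1.51e-10), whereas Ptpn11, which encodes SHP-2, had 0.51 and 0.61 (edgeR adjusted p = 1.45e-07 and 9.79e-09). Inpp5d, the lipid phosphatase SHIP-1, was lower (-1.01 and -1.14, edgeR adjusted p = 2.17e-09 and 3.91e-10), and the adaptor gene Sh2b3 was higher with Ova (0.63, edgeR adjusted p = 0.00218). Fcer1g, the ITAM chain that pairs with Pira, gave 0.13 and 0.11 (edgeR adjusted p = 0.345 and 0.438, with the block 0.0179 for Ova), and Plcg2, a phospholipase downstream of Syk, gave 0.04 and 0.15 (edgeR adjusted p = 0.594 and 0.0429). Plcg2 with IC passed with the block (edgeR adjusted p = 0.00961). In fits without the block it did not pass without mouse A, C, D or E (edgeR adjusted p = 0.0924, 0.124, 0.0975 and 0.0869).

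Ligands of the paired receptors were measured in the same cells. Of 16 listed, 15 were tested, with 4 higher and 5 lower with iBET and Ova (median log2 fold change -0.22) and 4 higher and 3 lower with IC (median -0.16). Of all genes 27.7% and 28.9% did so with Ova, and 27.1% and 29.0% with IC, shares near those of the ligands with Ova. The MHC class I genes H2-K1 and H2-D1, ligands of PIR-B, were higher, by 0.44 and 0.38 with Ova and by 0.45 and 0.37 with IC on the log2 scale (edgeR adjusted p = 7.72e-05, 0.00888, 4.96e-05 and 0.0106), while B2m, their common light chain, gave 0.14 and 0.10 (edgeR adjusted p = 0.261 and 0.443). Calr, encoding the chaperone calreticulin, rose most (0.92 and 0.82, edgeR adjusted p = 3.94e-07 and 1.91e-06). Cd200 fell most (-1.58 and -1.63, edgeR adjusted p = 0.0149 and 0.0118, with the block 4.26e-09 and 1.35e-09), at 6.48 ± 4.1 CPM in iBET Ova (SD, n = 5). Without the block, leaving out mouse D lost its call with Ova (edgeR adjusted p = 0.0566). Cd47, the ligand of Sirpa and named for that role after its values were seen, gave -0.21 and -0.16 (edgeR adjusted p = 0.134 and 0.276, for Ova 0.0216 without mouse A).

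**Figure D4:**
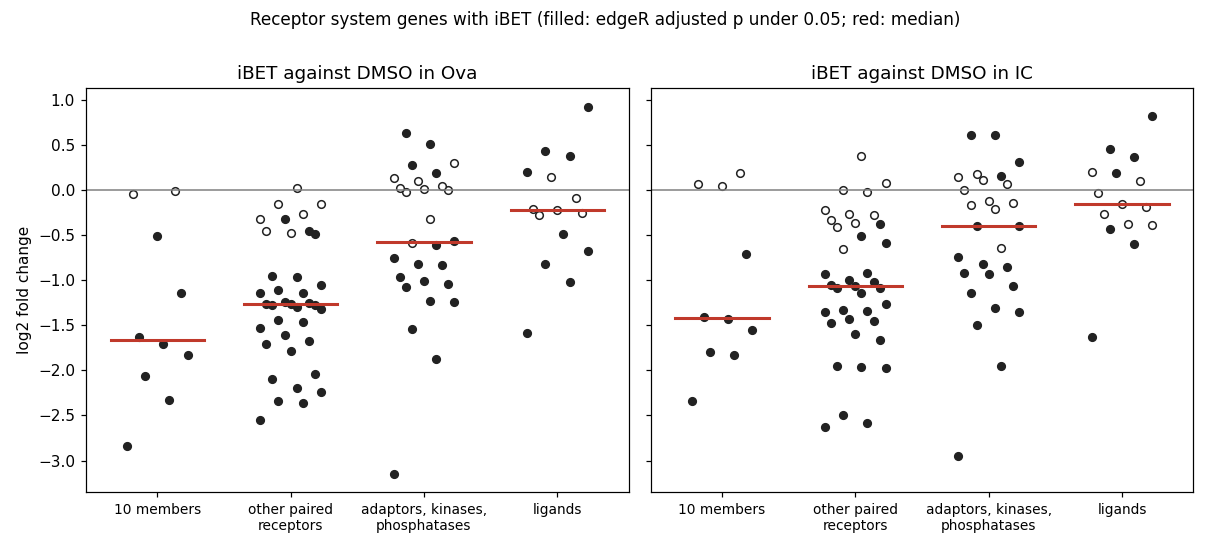
Log2 fold change (vertical axis) with iBET for the 10 members and for the tested genes of 3 lists, in Ova on the left and IC on the right. Each point is a gene, filled where the edgeR adjusted p was under 0.05, and red lines are medians, at -1.67, -1.27, -0.58 and -0.22 with Ova and -1.42, -1.06, -0.40 and -0.16 with IC.

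With IC against Ova, 1 of the 38 other paired receptors was higher and 1 lower with DMSO (9.59% and 10.7% of all genes), and 2 were higher and 0 lower with iBET (5.19% and 6.63%). With the block it was 6 and 8 with DMSO (18.3% and 19.8% of all genes) and 16 and 1 with iBET (14.2% and 14.7%). The interaction passed for 0 of them (0.0241% of all genes were positive and 0.0160% negative). With the block it passed for 3, all positive (0.401% and 0.417%), among them Pilra (0.52, edgeR adjusted p = 0.0352). Slamf8 rose with DMSO (1.27, edgeR adjusted p = 0.0118, with the block 7.4e-08). In fits without the block it did not pass without mouse C or E (edgeR adjusted p = 0.0605 and 0.0524). Pilra, an inhibitory receptor, fell (-0.60, edgeR adjusted p = 0.000158). Lilr4b rose with iBET (0.37, edgeR adjusted p = 0.0247, with the block 0.000252). It did not pass without mouse A, C, D or E in fits without the block (edgeR adjusted p = 0.0547, 0.0878, 0.0729 and 0.0742). Of the 28 signalling genes 6 were higher and 6 lower with DMSO (9.59% and 10.7% of all genes), and 4 and 3 with iBET (5.19% and 6.63%), and with the block 8 and 8 (18.3% and 19.8%), and 8 and 5 (14.2% and 14.7%). The adaptor gene Grb2 rose most with DMSO (0.61, edgeR adjusted p = 0.00113). Malt1, a protease of the Card9 pathway, rose most with iBET (0.46, edgeR adjusted p = 0.0478, with the block 0.000175). Malt1 did not pass without mouse A, C, D or E in fits without the block (edgeR adjusted p = 0.118, 0.0843, 0.161 and 0.107). Card9, an adaptor downstream of Syk, fell most in both (-0.72 and -0.50, edgeR adjusted p = 5.73e-07 and 7.84e-05). Ptpn6 fell too (-0.31 and -0.38, edgeR adjusted p = 0.0121 and 0.00664, with the block 0.00116 and 0.000667). In fits without the block, leaving out mouse C lost the Ptpn6 call in both (edgeR adjusted p = 0.068 and 0.0694). Leaving out mouse A lost it with DMSO (edgeR adjusted p = 0.0634).

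Of the 15 ligands 2 were higher and 2 lower with IC under DMSO (9.59% and 10.7% of all genes), and 1 higher and 0 lower with iBET (5.19% and 6.63%). With the block it was 5 and 2 with DMSO (18.3% and 19.8%) and 7 and 2 with iBET (14.2% and 14.7%). Calr rose in both (0.54 and 0.43, edgeR adjusted p = 0.00147 and 0.0119, with the block 0.00012 and 0.0016). With iBET it did not pass without mouse B, C or D in fits without the block (edgeR adjusted p = 0.0677, 0.0504 and 0.0693). Spn, encoding the sialylated protein CD43, fell with DMSO (-0.46, edgeR adjusted p = 0.00886, with the block 6.76e-06). Without the block, leaving out mouse C lost this call (edgeR adjusted p = 0.0605). Cd47 fell with DMSO in 4 of 5 mice (-0.37, edgeR adjusted p = 0.0324, with the block 0.022). In fits without the block it did not pass without mouse B, C, D or E (edgeR adjusted p = 0.0606, 0.205, 0.236 and 0.0689). With iBET Cd47 gave -0.32 (edgeR adjusted p = 0.0913, with the block 0.0498, without mouse E 0.0394).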

How the data were processed

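RNA of 20 BMDC libraries was prepared with a stranded total RNA kit. Reads were trimmed, aligned to mm10 with HISAT2 and counted with featureCounts (per the methods and the submitters' processing notes), with versions, gene annotation, strand setting and multi-mapping rule not given in the sources used here. The authors deposited raw counts per gene and library, and a second table of these counts after division by library size factors, signal values used as an alternative only. The methods name DESeq2 and sva.

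Counts were filtered with filterByExpr, scaled with TMM and fitted in edgeR 4.0.16 (R 4.3.3) with group (4 levels) as sole factor over all 20 libraries. Adjusted p values under 0.05 were called. Log2 CPM used a prior count of 2. Replicates are separate mice, whose libraries differed by more than counting error (chi-square per degree of freedom at least 12.54 in 40 pairs), and errors are SDs between mice. Groups share replicate letters because each mouse gave 4 libraries: deviations from group means correlated between libraries of a mouse in all 30 pairs (lowest r = 0.307, mean 0.524, -0.127 between mice), so the letters pair the samples. Principal component 2 (14.9% of variance) ran from -33.8 to -18.6 in mice A and B and from 9.83 to 23.5 in C, D and E, and no batch is named.

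Alternatives were the mouse as a replicate block, DESeq2 1.42.0 without and with it, DESeq2 size factors or library size alone, 3 svaseq variables (sva 3.50.0), no filter, only the groups compared, limma 3.58.1 on the deposited signal values (log2, pseudocount 1), leaving out each mouse, either set of mice alone, and a minimum size of 1 for the log2 fold change. Members and lists were chosen with earlier results of these data known. All members are named. Of each list the 4 genes of highest mean CPM are named, and per comparison the largest riser and faller among called genes with a mean of at least 100 counts. The tests were tested on simulated data. Coordinates and exon lengths come from GENCODE M21. Shared stretches are exact matches of 100 bases between GENCODE transcripts.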

Additional observations from a re-analysis of the deposited data

Results flagged for a closer look

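All 4 groups of each member and of each other named gene were checked, so several flags would arise by chance alone. No value of a member was flagged. In 5 groups of other named genes 1 mouse lay apart from the 4 others by Dixon's criterion, which chance meets in about 1 of 20 groups: Card9 in iBET Ova (mouse E, 36.8 CPM), Fgr in iBET IC (mouse A, 13.2 CPM), Plcg2 in DMSO IC (mouse C, 161 CPM), and Spn in DMSO Ova and DMSO IC (mouse D in both, 54.7 and 43.2 CPM).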

How the results depend on the processing

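Of 790 recomputed member values, 708 kept their direction and their side of the threshold, 38 gained and 25 lost significance, and 19 changed sign; for the other named genes it was 749, 23, 55 and 5 of 832. The 8 and 7 members lower with iBET became 7 to 8 and 6 to 7 without single mice. The 4 members called for IC with DMSO became 8 with the replicate block, with DESeq2 and the block, with surrogate variables and in mice C, D and E, 2 to 5 without single mice (2 without A, C, D or E), 2 with only the groups compared, 1 in mice A and B and 0 when a log2 change of 1 or more was required. Over all genes 1196 higher and 1335 lower became 2284 and 2471 with the block and 1853 and 1892 with surrogate variables. They were 1852 and 1556 in mice C, D and E, 790 and 976 with only the groups compared, and 276 and 224 in mice A and B. For IC with iBET 2 became 6 with the replicate block, with DESeq2 and the block and with surrogate variables, 4 in mice C, D and E, 1 to 2 without single mice (1 without A or C) and 0 with that size required. Over all genes 647 higher and 827 lower became 1766 and 1835 with the block and 1278 and 1409 with surrogate variables. With DESeq2 and the block they were 1818 and 1726, and in mice C, D and E 567 and 621. Without mouse A they were 466 and 555, and without mouse C 284 and 359. The interaction's 0 became 2 with DESeq2 and the block. Beyond the values given in the report, the replicate block changed no other call of a member. Signs turned only for values near 0 that had not passed, except Cd47 with IC and DMSO, which had passed. For Tyrobp with iBET and Ova the log2 fold change was 0.005 with the replicate block, 0.008 with DESeq2 and the block and in limma, 0.006 without the filter, 0.048 with surrogate variables, 0.139 in mice C, D and E and -0.034 to 0.09 without single mice. With iBET and IC it was -0.009 by library size and -0.027 in mice C, D and E, and its interaction was -0.166 there and -0.051 to 0.121 without single mice. In mice C, D and E the value was 0.027 for Pirb and 0.058 for Cd300lb (IC with DMSO), 0.024 for Siglec1 (IC with iBET), 0.006 for Sirpa (iBET with Ova), -0.135 for Cd300a (interaction) and 0.011 for Cd47 (iBET with IC). Without single mice it was -0.057 to 0.117 for the Cd300a interaction, -0.048 to 0.036 for Cd300lb (IC with DMSO) and -0.064 to 0.006 for Sirpa (iBET with Ova). In mice A and B it was 0.179 for Cd47 with iBET and Ova, 0.024 for Cd47 with IC and DMSO and -0.077 for Plcg2 with iBET and Ova, which was -0.009 by library size. These causes were not tested. Siglece, with as few as 8 counts in a library, is the member whose precision depth limits most.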
